A study of Mus musculus with 10 samples.

Results

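Glycerophospholipids, the main lipids of cell membranes, are built by a small set of enzymes, and 33 of the genes that encode them were examined here out of 27179 genes counted in mouse liver. They were taken by name, as the acyltransferases, phosphatases and head group enzymes of de novo synthesis, and each symbol was matched to its NCBI Gene number in the count table. All 33 were found, and 32 passed the filter on low counts; choline kinase beta (Chkb) did not.

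The samples were livers of male C57BL/6 mice kept on a NASH diet, a diet used to bring on non-alcoholic steatohepatitis, for 12 weeks. Control mice carried floxed Lpcat3 alleles (Lpcat3f/f, n = 5). Liver knockout mice (LKO, n = 5) carried the same floxed alleles and Cre recombinase under the Albumin promoter, which is active in hepatocytes. Lpcat3 was not measured here in separate types of liver cell. No group on another diet and no group with Cre alone is used here, and the sources used here do not give the composition of the diet.

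In the Kennedy pathway, glycerol 3-phosphate is acylated to lysophosphatidate and then to phosphatidate. Lipin enzymes remove the phosphate to give diacylglycerol, onto which CDP-choline or CDP-ethanolamine is transferred to make phosphatidylcholine or phosphatidylethanolamine. In liver, phosphatidylethanolamine is also methylated to phosphatidylcholine, base exchange makes phosphatidylserine, and the CDP-diacylglycerol route leads to phosphatidylinositol and to cardiolipin, the lipid of the inner mitochondrial membrane. Lpcat3, the deleted gene, acts after these steps: it re-acylates lysophosphatidylcholine and related lysophospholipids, preferring polyunsaturated chains.

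Lpcat3 checked the labels. Its CPM (counts scaled to library size with TMM factors) were 124, 118, 111, 95.7 and 94.1 in controls 1 to 5, and 31.1, 31.3, 38.5, 25.5 and 30.3 in LKO 1 to 5. The groups did not overlap, and the log2 difference was -1.79 (SE 0.12, edgeR quasi-likelihood adjusted p = 0.000151). Libraries held 26914124 to 46727182 counts, and on the first principal component (56.8% of the variance) control 4 lay at 30.2 among the LKO libraries (-8.03 to 82.3), away from the other controls (-52.7 to -30.1). Without control 4, genes with an adjusted p under 0.05 went from 10 to 2296. Bracketed codes in the sample titles, of unstated meaning, cut across this: A54 marks control 1, LKO 1 and LKO 2, A55 the other controls, and A67 the other LKO libraries, so for most libraries code and genotype cannot be told apart. A fit with the code as a covariate therefore compares genotypes only within A54, that is control 1 against LKO 1 and LKO 2.

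None of the 32 members tested passed an adjusted p of 0.05, in a comparison where 0.0657% of all 15226 tested genes did. The adjusted p was under 0.1 for 2 members (6.25%), Gpat3 and Lpin2, against 1.94% of all genes. At an unadjusted p under 0.05, 6 members were higher in LKO livers (18.8%, against 12.8% of all genes) and 1 was lower (3.12%, against 9.5%). In both directions together the members' share, 21.9%, was near the 22.3% of all genes. All 5 LKO values lay above all 5 control values for 3 members (9.38%, against 1.72% of all genes), which were Gpat3, Agpat4 and Lpin2. For no member did they all lie below the controls, against 2.23% of all genes. The members' median log2 difference was 0.07, that of all tested genes was -0.00, and 18 of 32 members lay within the interquartile range of all genes, -0.16 to 0.25. Those medians move with the scaling: with total counts alone the median of all genes was 0.24 and that of the members 0.30.

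**Figure D1:**
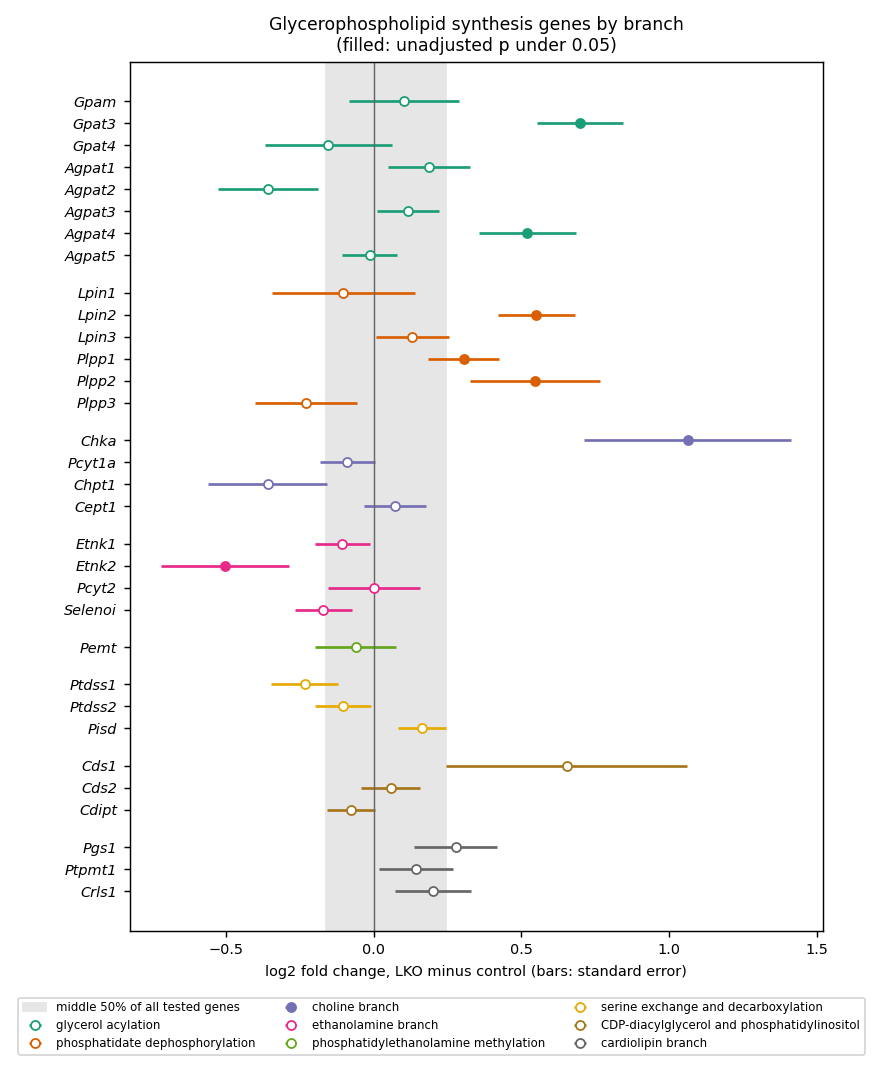
Log2 difference of LKO from control livers for the 32 tested members (points; bars are standard errors; n = 5 per group), ordered by branch, with the interquartile range of all tested genes shaded. Filled points have an unadjusted p under 0.05: Gpat3, Agpat4, Lpin2, Plpp1, Plpp2 and Chka lie to the right and Etnk2 to the left.

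Sequence upstream of the start site is shown for the 3 members whose groups did not overlap, and for Pcyt1a, the rate-limiting enzyme of the choline branch, whose groups did. Windows of 250 bases before each RefSeq start site (GRCm38.p6) were at hand for 27 of the 33 members, and all 4 shown lie on the plus strand. The Gpat3 window stops before the first annotated exon of that gene and holds 151 bases, chr5:100845979-100846129. The others are Agpat4, chr17:12119034-12119283, Lpin2 at its most upstream start, chr17:71183282-71183531, and Pcyt1a at its most upstream start, chr16:32430671-32430920. Capitals mark CACGTG, an E box that carbohydrate and sterol response factors can bind, in Lpin2, and TCACNCCAC, a sterol regulatory element motif, in Pcyt1a.
Gpat3: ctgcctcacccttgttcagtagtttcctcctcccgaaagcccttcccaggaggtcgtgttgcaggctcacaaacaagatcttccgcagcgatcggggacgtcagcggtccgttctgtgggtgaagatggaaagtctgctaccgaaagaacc
Agpat4: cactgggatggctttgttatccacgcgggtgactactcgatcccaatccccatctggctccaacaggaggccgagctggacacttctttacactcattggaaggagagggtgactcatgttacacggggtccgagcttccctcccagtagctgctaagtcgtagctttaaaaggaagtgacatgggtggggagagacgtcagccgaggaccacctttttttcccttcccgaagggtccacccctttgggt
Lpin2: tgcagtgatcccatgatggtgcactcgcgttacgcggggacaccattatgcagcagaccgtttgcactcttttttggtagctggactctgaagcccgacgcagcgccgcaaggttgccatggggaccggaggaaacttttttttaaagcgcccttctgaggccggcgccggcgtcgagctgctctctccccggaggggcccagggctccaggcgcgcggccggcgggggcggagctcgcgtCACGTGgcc
Pcyt1a: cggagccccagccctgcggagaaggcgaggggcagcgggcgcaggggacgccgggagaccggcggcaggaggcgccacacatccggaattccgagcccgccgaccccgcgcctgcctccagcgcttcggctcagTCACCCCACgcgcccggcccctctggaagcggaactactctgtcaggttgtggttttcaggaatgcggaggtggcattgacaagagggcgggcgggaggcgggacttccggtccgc
The members had 40 windows, since some have several start sites. Searched on both strands in the 250 bases, CACGTG was in 2 of the 40, of Lpin2 and Crls1. It was in 6.02% of 32851 RefSeq windows of all genes. TCACNCCAC was in 2 of the 40, overlapping windows of Pcyt1a, and in 1.05% of all windows. AGGTCA, the core letters of many nuclear receptor sites, was in 5 of the 40 and in 14% of all windows. Those 5 were of Gpam, Agpat1, Lpin1, Selenoi and Ptpmt1. TGATGNAAT, a motif of the stress factor ATF4, was in no member and in 0.816% of all windows. Of the members whose groups did not overlap, Gpat3 and Agpat4 thus held none of these letters, and Pcyt1a, with the sterol motif, was at 82.0 ± 4.37 CPM (SD, n = 5) in controls and 77.2 ± 9.35 in LKO livers.

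Glycerol acylation begins with the glycerol-3-phosphate acyltransferases: Gpam at the outer mitochondrial membrane, and Gpat3 and Gpat4 in the endoplasmic reticulum. Gpat3 had 10.4, 11.6, 11.5, 11.4 and 11.0 CPM in controls 1 to 5 and 12.7, 15.4, 21.7, 18.7 and 22.3 CPM in LKO 1 to 5. The controls sat within a narrow band and every LKO library was above it, with the A67 libraries higher than the A54 ones. The mean went from 11.2 ± 0.505 to 18.2 ± 4.14 (SD, n = 5), a 1.62-fold difference (log2 0.70, SE 0.14, edgeR adjusted p = 0.0818). With the title code as a covariate, which leaves control 1 against LKO 1 and LKO 2, the log2 difference was 0.43. Computed from those A54 libraries alone it was 0.42. The adjusted p of Gpat3 was under 0.05 in 5 of 22 alternatives by edgeR, DESeq2 or voom. In whole liver, fewer cells of a type and less RNA per cell cannot be told apart, here and for every gene below.

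The other acyltransferases of this step overlapped between groups. Gpam, a target of insulin and SREBP signalling, ranged from 176 to 239 CPM in controls and from 122 to 252 in LKO livers (log2 0.10, adjusted p = 0.762), with LKO 3 the lowest. Gpat4 averaged 228 ± 60.4 and 205 ± 47.7 CPM (log2 -0.15, adjusted p = 0.692; 0.10 with total counts), and its lowest library was control 4 at 132. Per kilobase of exon the control order was Gpat4, 41.4 ± 10.9 CPM, then Gpam, 31.8 ± 4.35, whose ranges overlapped, and far below them Gpat3, 3.42 ± 0.155, which was 5.56 ± 1.27 in LKO livers. Gpat3 thus had the lowest level of the 3 and the largest difference. Its reads are uncertain where it overlaps Abraxas1, since the strand setting of the counting is not given; Abraxas1 itself was at 7.31 CPM in controls and 6.51 in LKO livers (log2 -0.17).

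The second acylation, by the acylglycerol-phosphate acyltransferases, yields phosphatidate. Agpat4, an isoform best known from brain and muscle, had 1.09, 1.05, 1.45, 1.42 and 1.37 CPM in the controls and 1.79, 1.72, 2.06, 1.83 and 1.79 CPM in LKO livers. Every LKO value was above every control value, and A54 and A67 libraries were alike. Its log2 difference was 0.52 (SE 0.16, edgeR adjusted p = 0.134), on counts of only 29 to 77 per library. Agpat2, a main isoform of liver and fat tissue, went the other way: 68.5, 64.2, 59.1, 41.6 and 61.3 CPM in controls against 59.7, 51.0, 33.2, 46.8 and 39.4 CPM in LKO livers. The groups overlapped through control 4, the lowest control, and through LKO 1, just above control 3, and the log2 difference was -0.36 (SE 0.17, edgeR adjusted p = 0.236).

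Agpat3 was at 175 ± 8.73 CPM in controls and 190 ± 25.4 in LKO livers, with LKO 3 alone below all controls at 145 (log2 0.12, adjusted p = 0.521). For Agpat1 and Agpat5 the log2 differences were 0.19 and -0.01 (adjusted p = 0.435 and 0.943), and that of Agpat5 turned to 0.22 with total counts. By level per kilobase in controls, Agpat2 led with 39.6 ± 6.94 CPM, followed by Agpat3 with 26.0 ± 1.29, then Agpat1 with 2.96 ± 0.567, Agpat5 with 0.752 ± 0.0525 and Agpat4 with 0.667 ± 0.0986. Agpat4, whose groups did not overlap, thus had the lowest mean of the 5 in controls. Its control range, 0.550 to 0.758, overlapped that of Agpat5, 0.697 to 0.827. In LKO livers its mean, 0.960, was above that of Agpat5, 0.745.

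**Figure D2:**
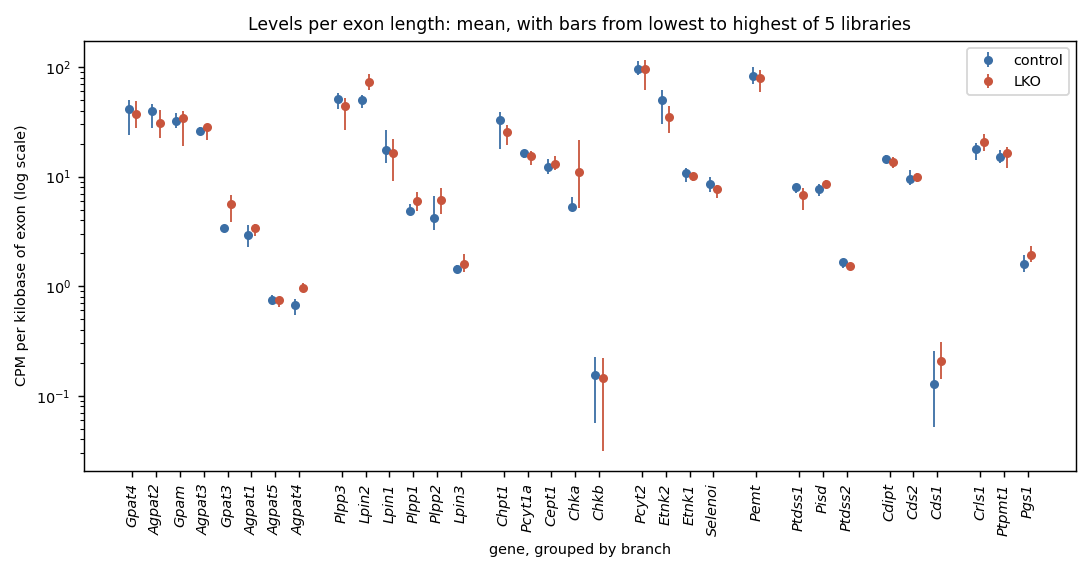
Level of each member per kilobase of exon (CPM per kilobase on a log axis; points are means and bars run from the lowest to the highest of 5 libraries; control blue, LKO red), grouped by branch and ordered by control level. Pcyt2 and Pemt are the most abundant, at 96.3 and 82.9 CPM per kilobase in controls; Chkb and Cds1 are the lowest.

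Phosphatidate is dephosphorylated by the lipins, soluble enzymes that also act as transcriptional coregulators, while the lipid phosphate phosphatases (Plpp1 to Plpp3) act on phosphatidate and lysophosphatidate at membranes. Lpin2 had 295, 340, 263, 298 and 351 CPM in the controls and 394, 385, 426, 535 and 525 CPM in LKO livers. Each LKO library was above each control, and control 4 was in the middle of its group. The mean went from 309 ± 35.7 to 453 ± 71.8, 1.46-fold (log2 0.55, SE 0.13, edgeR adjusted p = 0.0977). With the title code as a covariate the log2 difference of Lpin2 was 0.40 (adjusted p = 0.878; 0.00305 to 0.878 over all alternatives).

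Lpin1, the lipin regulated by fasting and glucocorticoids, ranged widely in both groups, from 81.7 to 166 CPM in controls and from 56.9 to 135 CPM in LKO livers. Its means were 108 ± 33.7 and 101 ± 30.0 CPM, and the log2 difference of -0.10 (adjusted p = 0.821) was 0.15 with total counts and 0.11 with the title code. Lpin3 was at 5.21 ± 0.300 and 5.70 ± 0.893 CPM (log2 0.13, adjusted p = 0.548). Per kilobase, Lpin2 was the most abundant lipin in controls with 49.4 ± 5.70 CPM, reaching 72.3 ± 11.5 in LKO livers, above Lpin1 with 17.5 ± 5.45 and Lpin3 with 1.44.

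Of the membrane phosphatases, Plpp2 had 5.40, 5.76, 5.97, 11.1 and 6.33 CPM in controls and 7.57, 10.4, 12.9, 7.99 and 11.6 CPM in LKO livers. Control 4 was the only control inside the LKO range. The log2 difference was 0.55 (SE 0.22, edgeR adjusted p = 0.184), and without control 4 it was 0.78 (adjusted p = 0.0152; 0.015 to 0.878 over all alternatives). Plpp1 had 9.85, 8.18, 8.50, 8.06 and 8.12 CPM in controls and 8.54, 9.29, 11.3, 12.7 and 10.8 CPM in LKO livers. Its high values were the 3 A67 libraries; control 1 exceeded both A54 LKO libraries, so the log2 difference of 0.30 (SE 0.12, edgeR adjusted p = 0.176) was -0.14 with the title code as a covariate. Plpp1 overlaps Mtrex, which was more abundant at 46.5 and 42.3 CPM (log2 -0.13), so its reads are uncertain too. Plpp3, the most abundant phosphatase per kilobase in controls (51.4 ± 6.56 CPM, overlapping Lpin2), ranged from 129 to 181 CPM in controls and from 83.9 to 166 in LKO livers (log2 -0.23, adjusted p = 0.442), LKO 3 being the lowest.

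**Figure D3:**
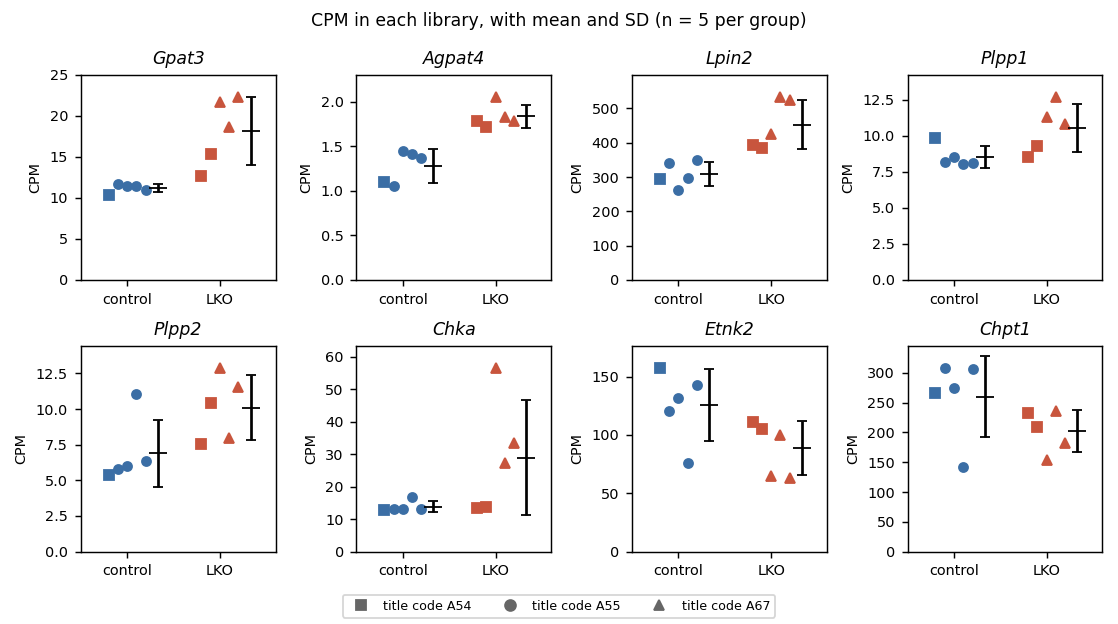
CPM in each library (symbols show the title code) for 8 members, with the mean and SD of each group (n = 5). Gpat3, Agpat4 and Lpin2 do not overlap between groups; the high Chka values are all A67 libraries, and control 4 lies among the LKO libraries for Plpp2 and Etnk2 and below them for Chpt1.

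The choline branch starts with choline kinase, continues with Pcyt1a, which makes CDP-choline, and ends with the transferases Chpt1 and Cept1. Chka, the main choline kinase of many tissues and a gene induced in proliferating and stressed cells, had 12.9, 13.0, 13.1, 17.0 and 13.1 CPM in controls and 13.3, 13.6, 56.5, 27.4 and 33.5 CPM in LKO livers. LKO 1 and LKO 2 were at the control level, and the 3 A67 libraries were above every control. The mean went from 13.8 ± 1.76 to 28.9 ± 17.7 CPM, 2.09-fold (log2 1.06, SE 0.35, edgeR adjusted p = 0.140). Within the A54 libraries the log2 difference was 0.06. The fit with the title code as a covariate, which compares genotypes in those same libraries, also gave 0.06. Chka had an adjusted p under 0.05 in 1 of 22 alternatives, 0.039 by DESeq2. Without LKO 3 the log2 difference was 0.66. All A67 libraries are LKO, so code and genotype cannot be told apart in them.

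Chkb had 9, 11, 11, 3 and 5 counts in the controls and 12, 7, 2, 14 and 9 counts in LKO livers, at most a few times the 3 counts that set the detection floor. It overlaps the read-through gene Gm44502, which was at 0 counts in all 10 libraries. The reads of Chkb are uncertain there, since how shared reads were counted is not given. No fold is given for Chkb. Pcyt1a, whose windows and values are given above, had a log2 difference of -0.09 (SE 0.09, adjusted p = 0.589; 0.14 with total counts).

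Chpt1, which makes phosphatidylcholine at the Golgi, had 267, 308, 275, 143 and 306 CPM in controls and 233, 209, 153, 236 and 183 CPM in LKO livers. Control 4 was below every LKO library, and all other controls were above every LKO library. The log2 difference was -0.36 (SE 0.20, edgeR adjusted p = 0.306), and without control 4 it was -0.51 (adjusted p = 0.0311; 0.0215 to 0.932 over all alternatives). Its reads are uncertain where it overlaps Sycp3, a far weaker gene at 5.04 CPM in controls and 3.68 in LKO livers. Cept1, which accepts both CDP-choline and CDP-ethanolamine, was at 37.7 ± 4.41 and 39.7 ± 4.77 CPM (log2 0.07, adjusted p = 0.697). Per kilobase in controls the order was Chpt1 with 32.7 CPM, Pcyt1a with 16.4, Cept1 with 12.3 and Chka with 5.31, the last at 11.1 ± 6.82 in LKO livers.

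In the ethanolamine branch, ethanolamine kinases feed Pcyt2, which makes CDP-ethanolamine and sets the pace, and Selenoi, the phosphotransferase. Etnk2, the isoform enriched in liver, had 157, 121, 132, 76.0 and 143 CPM in controls and 111, 105, 64.8, 99.6 and 62.8 CPM in LKO livers. All LKO libraries were below all controls but control 4. The means were 126 ± 30.9 and 88.8 ± 23.2 CPM (log2 -0.50, SE 0.22, adjusted p = 0.207 by edgeR), and without control 4 the log2 difference was -0.64 (adjusted p = 0.0413; 0.0413 to 0.878 over all alternatives).

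The lowest libraries for Etnk2 (control 4, LKO 3 and LKO 5) were also the lowest for the hepatocyte markers, whose mean log2 CPM over 11 genes, relative to the control mean, was -0.64, -0.83 and -0.60 there. Their part in the Etnk2 values was not tested. Etnk1, the widely expressed kinase, was at 91.6 ± 10.8 and 85.1 ± 5.14 CPM (log2 -0.11, adjusted p = 0.515; 0.13 with total counts). Pcyt2 was at 181 ± 22.7 and 181 ± 37.9 CPM (log2 0.00, SE 0.16, adjusted p = 0.998), with LKO 3 low at 117. Selenoi was at 58.6 ± 6.20 and 52.1 ± 5.09 CPM (log2 -0.17, adjusted p = 0.306; 0.05 with total counts). Pcyt2 was the most abundant of the branch and of all members per kilobase in controls, with 96.3 ± 12.1 CPM, followed by Etnk2 with 49.5 ± 12.2, then Etnk1 with 10.8 and Selenoi with 8.62.

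Pemt, the liver enzyme that methylates phosphatidylethanolamine to phosphatidylcholine, had 114, 106, 93.5, 80.9 and 79.6 CPM in controls and 97.4, 106, 68.1, 90.8 and 92.7 CPM in LKO livers. The groups overlapped throughout, apart from LKO 3 below all controls. The means were 94.9 ± 15.3 and 91.1 ± 14.2 CPM, and the log2 difference was -0.06 (SE 0.14, edgeR adjusted p = 0.815; 0.18 with total counts). Between the methylation route and the choline route, the log2 ratio of Pemt to Pcyt1a was 0.20 ± 0.21 in controls and 0.23 ± 0.12 in LKO livers.

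Serine exchange is done by phosphatidylserine synthases, Ptdss1 acting on phosphatidylcholine and Ptdss2 on phosphatidylethanolamine, and Pisd decarboxylates phosphatidylserine back to phosphatidylethanolamine in mitochondria. Ptdss1 had 27.1, 28.2, 28.0, 24.3 and 28.4 CPM in controls and 24.1, 22.9, 17.0, 27.1 and 24.7 CPM in LKO livers. Control 4 was the lowest control, LKO 3 was the lowest of all, and LKO 4 lay just below the other controls. The log2 difference was -0.23 (SE 0.11, edgeR adjusted p = 0.247). Ptdss2 was at 5.96 ± 0.429 and 5.54 ± 0.265 CPM (log2 -0.10, adjusted p = 0.537; 0.13 with total counts). Pisd was at 22.8 ± 2.14 and 25.5 ± 1.52 CPM (log2 0.16, adjusted p = 0.258), a value that is uncertain because the pseudogene Pisd-ps1 had 985 to 1622 counts per library. Per kilobase, Ptdss1 with 7.94 CPM and Pisd with 7.70 were nearly level in controls and Ptdss2 was lower with 1.64.

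CDP-diacylglycerol is made from phosphatidate by Cds1 and Cds2, and Cdipt joins it to inositol. Cds1 had 0.340, 0.316, 0.202, 0.999 and 0.675 CPM in controls and 0.879, 0.765, 1.20, 0.636 and 0.556 CPM in LKO livers. The groups overlapped, with controls 4 and 5 among the LKO libraries. The log2 difference was 0.65 (SE 0.41, edgeR adjusted p = 0.355), on 6 to 45 counts per library. Cds2, whose control level per kilobase was 9.52 CPM against 0.129 for Cds1, was at 85.6 ± 11.1 and 89.1 ± 7.43 CPM (log2 0.06, adjusted p = 0.749). Cdipt was at 29.4 ± 1.84 and 27.9 ± 2.60 CPM (log2 -0.08, adjusted p = 0.593; 0.15 with total counts).

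In the cardiolipin branch, Pgs1 makes phosphatidylglycerophosphate, Ptpmt1 dephosphorylates it and Crls1 condenses phosphatidylglycerol with CDP-diacylglycerol. Pgs1 had 4.98, 4.29, 3.88, 5.48 and 4.17 CPM in controls and 4.77, 5.24, 6.63, 4.89 and 6.09 CPM in LKO livers. LKO 3 and LKO 5 were above all controls and the other LKO libraries were among them. The log2 difference was 0.28 (SE 0.14, edgeR adjusted p = 0.260). Ptpmt1 was at 47.6 ± 5.11 and 52.5 ± 8.92 CPM (log2 0.14, adjusted p = 0.515) and Crls1 at 37.0 ± 4.81 and 42.5 ± 7.08 CPM (log2 0.20, adjusted p = 0.364). Per kilobase the controls had 17.9 CPM of Crls1, 14.9 of Ptpmt1 and 1.59 of Pgs1, the enzyme of the committed step.

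Branch medians lay between -0.14 and 0.22, and with total counts, where all genes shifted by 0.24, between 0.091 and 0.46. The median log2 difference of their tested members was 0.11 for glycerol acylation (8 genes), 0.22 for phosphatidate dephosphorylation (6), -0.01 for the choline branch (4) and -0.14 for the ethanolamine branch (4). It was -0.10 for serine exchange and decarboxylation (3), 0.06 for CDP-diacylglycerol and phosphatidylinositol (3) and 0.20 for the cardiolipin branch (3), beside -0.00 for all genes. Members with an unadjusted p under 0.05 were 2 of 8 in acylation, 3 of 6 in dephosphorylation, 1 of 4 in the choline branch and 1 of 4 in the ethanolamine branch, and 0 of the 10 others, where 22.3% of all genes had one (12.8% higher, 9.5% lower). Only the cardiolipin branch had a mean per library that did not overlap, -0.11 to 0.10 in controls and 0.12 to 0.30 in LKO livers on the log2 scale relative to the control mean. Within the A54 libraries that mean was 0.034 in control 1, 0.12 in LKO 1 and 0.14 in LKO 2. The median log2 difference of its 3 genes was 0.01 there. It was also 0.01 with the title code as a covariate, which compares the same libraries. The ethanolamine branch was lowest in LKO 3 (-0.51) and LKO 5 (-0.26). The 5 members with an adjusted p under 0.05 without control 4 spread over 4 branches: Gpat3, Lpin2 and Plpp2 were higher (3 of 33, 9.09%, against 10.2% of all genes) and Chpt1 and Etnk2 lower (2 of 33, 6.06%, against 4.75%). These shares were near those of all genes.

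**Figure D4:**
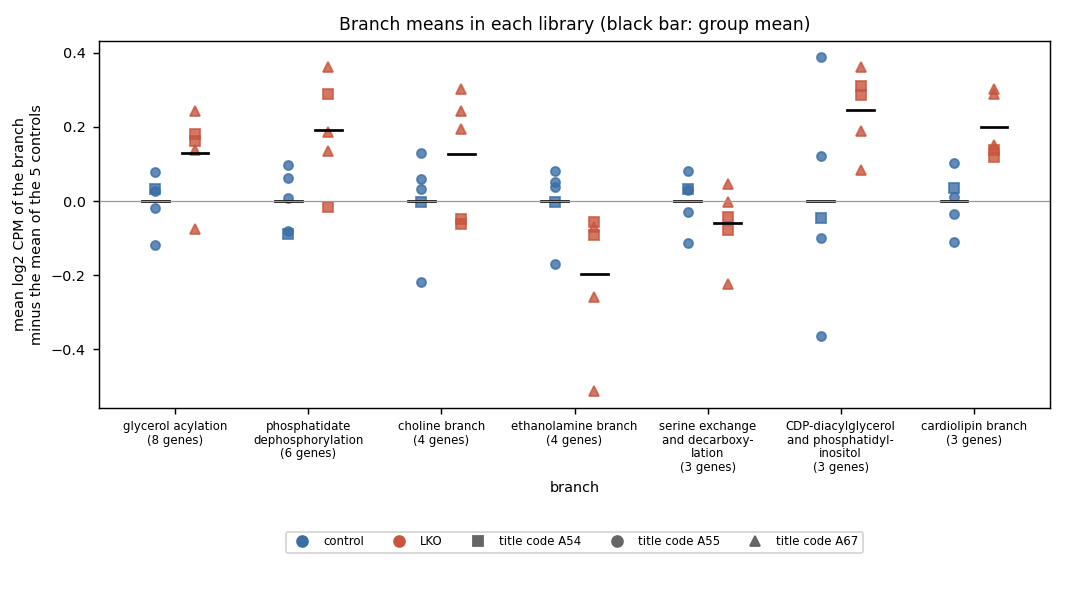
Mean log2 CPM of the tested members of each branch in each library, relative to the mean of the 5 controls (black bars are group means; symbols show the title code). The cardiolipin branch is the only one whose groups do not overlap, and LKO 3 is lowest in the ethanolamine branch.

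By the RefSeq gene models, other counted protein-coding genes also overlap Agpat1 (Egfl8), Lpin1 (Ntsr2), Cept1 (Dram2 and Dennd2d), Ptdss1 (Mterf3), Pgs1 (Dnah17) and Crls1 (Lrrn4), and these values carry the same uncertainty.

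Isoenzymes of a step, and enzymes that feed the same or neighbouring products, were compared by their log2 ratio within each library, in 12 pairs described with no test. Cds1 over Cds2 had the largest shift, from -7.42 ± 0.87 (SD, n = 5) in controls to -6.73 ± 0.43 in LKO livers, on the low counts of Cds1. Lpin2 over Lpin1 went from 1.55 ± 0.28 in controls to 2.21 ± 0.46 in LKO livers. Gpat3 over Gpam went from -4.16 ± 0.15 to -3.56 ± 0.68, and Agpat3 over Agpat2 from 1.59 ± 0.25 to 2.06 ± 0.23. Cept1 over Chpt1 went from -2.74 ± 0.34 to -2.34 ± 0.29 and Etnk2 over Etnk1 from 0.42 ± 0.48 to 0.02 ± 0.43. The ranges overlapped for all 12 pairs. For Agpat3 over Agpat2 and for Cept1 over Chpt1, control 4 was the only control above the lowest LKO value. For Lpin2 over Lpin1 it was control 1. Ratios that lay within 0.25 of each other between groups were those of Gpat4 to Gpam, Lpin3 to Lpin1, Pemt to Pcyt1a, Pcyt2 to Pcyt1a, Ptdss2 to Ptdss1 and Crls1 to Pgs1.

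**Figure D5:**
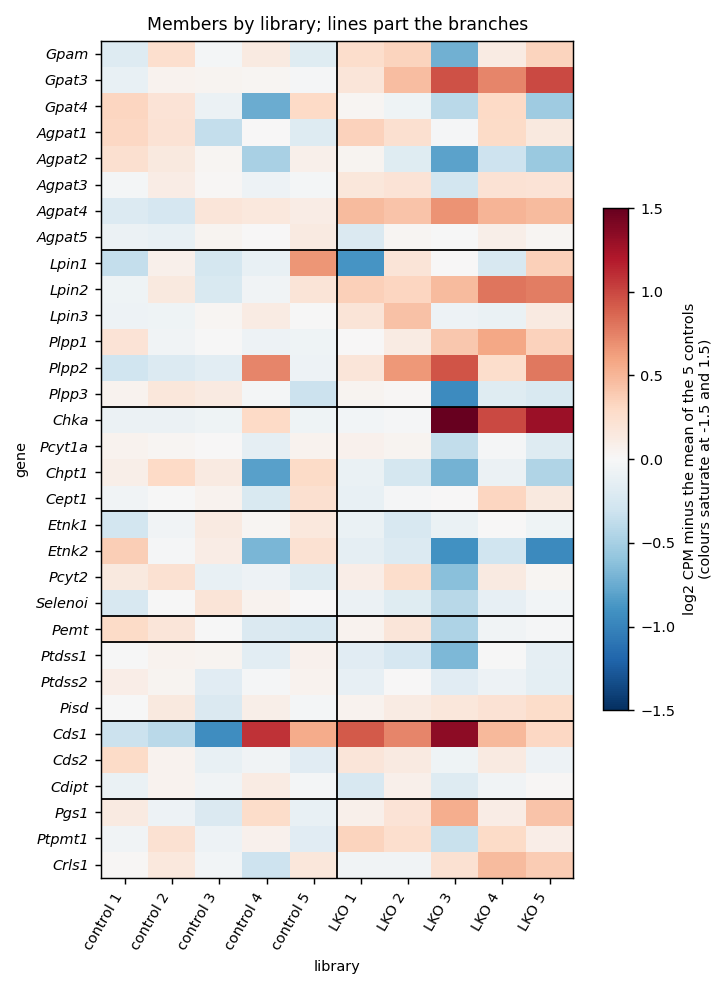
Log2 CPM of the 32 tested members in each library relative to the mean of the 5 controls (colour; lines part the branches and the groups). LKO 3 is low for Gpam, Agpat2, Plpp3, Etnk2, Pcyt2 and Ptdss1, and control 4 is low for Gpat4, Chpt1 and Etnk2.

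Genes around these branches were listed as well, and none of the 72 tested had an adjusted p under 0.05. Choline and ethanolamine uptake had 3 of 5 tested genes higher at an unadjusted p under 0.05 and none lower. Of all genes 12.8% were higher and 9.5% lower by that measure, and the counts of each list below stand against these shares. Flvcr1, a choline transporter, went from 3.22 ± 0.517 to 4.41 ± 0.498 CPM without overlap (log2 0.45, adjusted p = 0.136). Slc44a2 (log2 0.52, adjusted p = 0.178) and Slc44a3 (log2 0.28, adjusted p = 0.156), of the choline transporter-like family, were the others. The mean of this list lay between -0.11 and 0.11 in controls and between 0.21 and 0.29 in LKO livers, log2 relative to the control mean.

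Choline oxidation and the methyl donor cycle, which compete with the kinases for choline and supply Pemt, had a median log2 difference of -0.31 over 13 genes, of which 2 were lower at an unadjusted p under 0.05. Cbs, which draws homocysteine into cysteine synthesis, went from 218 ± 42.1 to 147 ± 20.6 CPM (log2 -0.57, adjusted p = 0.109). Dmgdh, which demethylates dimethylglycine, had a log2 difference of -0.67 (adjusted p = 0.157). This list was lowest in control 4 (-0.51), LKO 3 (-0.61) and LKO 5 (-0.45), the libraries with the lowest hepatocyte markers.

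Other synthesis isoenzymes and CTP supply had 1 of 8 genes higher, Ctps2, a CTP synthase (log2 0.80, adjusted p = 0.139), and 1 lower, Pnpla6, which deacylates phosphatidylcholine (log2 -0.25, adjusted p = 0.138). Cardiolipin remodelling and mitochondrial lipid transfer had 1 of 16 higher, Prelid2 (log2 1.17, adjusted p = 0.106), and 1 lower, Vps13d, a lipid transfer protein (log2 -0.23, adjusted p = 0.177). Turnover of phosphatidate and breakdown of choline phospholipids had 1 of 12 higher, Dgkz, a diacylglycerol kinase, which forms phosphatidate (log2 0.29, edgeR adjusted p = 0.174). Among 12 regulators of synthesis 1 was lower, Mlxipl, the carbohydrate response factor ChREBP (log2 -0.60, adjusted p = 0.15). Srebf1, the sterol and insulin response factor, had a log2 difference of -0.66 (adjusted p = 0.253), and the 5 LKO values of Hnf4a lay below all controls (log2 -0.21, adjusted p = 0.224). Of the 6 genes of glycerol 3-phosphate supply none had an unadjusted p under 0.05 in this edgeR test.

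Summed marker levels overlapped between the groups for every liver cell type listed, and control 4 lay at the LKO end of the controls for several. Some single markers did not overlap. S100a8, C1qb, Pecam1 and Cdh5 were higher in every LKO library than in every control, as were 1.72% of all genes. Apob and Hnf4a were lower, as were 2.23% of all genes. Summed hepatocyte markers ran from 62659 CPM (control 4) to 103098 in controls and from 52994 to 77547 in LKO livers, with all 11 tested genes lower in mean (median log2 -0.48). Recruited macrophage markers summed to 88.9 to 550 CPM in controls, control 4 the highest, and 238 to 889 in LKO livers, with 11 of 11 higher in mean. For Kupffer cells the sums were 310 to 414 and 394 to 622 CPM (8 of 10 higher). They were 265 to 650 and 385 to 893 for stellate cells (10 of 10), and 23.7 to 161 and 28.7 to 380 for cholangiocytes (7 of 7). Control 4 was again the highest control for each of these cell types. Sinusoidal endothelial markers summed to 438 to 525 and 448 to 668 CPM (9 of 9 higher). Neutrophil, T and NK cell and B cell markers each summed to under 11 CPM in every library. Of those tested, 3 of 3, 5 of 6 and 4 of 5 were higher in mean, in that order. The neutrophil genes S100a8 and S100a9 had log2 differences of 2.07 and 1.89 (edgeR adjusted p = 0.0913 and 0.0978). Counts of 0 in at least 1 library occurred for 2 of 8 cholangiocyte, 3 of 6 neutrophil and 1 of 7 T and NK cell markers, and for no marker of the other types. None of the cell type markers had an adjusted p under 0.05, and their part in the members' values was not tested. LKO 3 and LKO 5, the libraries with the highest Gpat3 values, also had the highest cholangiocyte markers. Among LKO libraries they had the highest recruited macrophage and stellate cell markers too. By mean log2 CPM relative to the control mean, control 4 was above LKO 5 for macrophages (2.31 against 2.04) and stellate cells (1.01 against 0.92). Gpat3 in control 4 (11.4 CPM) lay at the level of the other controls.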

How the data were processed

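Liver RNA was extracted with TRIzol, depleted of ribosomal RNA and made into stranded libraries read from a single end, per the labels' protocols. The authors deposited raw gene counts per library; bcl2fastq 2.20, DESeq2 and GRCm39 come from the submitters' processing notes, whereas the aligner, counter, strand setting and gene models were not given in the sources used here. Totals per library were 26914124 to 46727182 counts, and 3 counts, the floor, came to 0.0698 to 0.113 CPM.

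Genes were filtered with filterByExpr (edgeR 4.0.16), scaled by TMM and tested for genotype with the quasi-likelihood F test. P-values were adjusted over 15226 genes by Benjamini-Hochberg (threshold 0.05), and they set the group difference against the spread between these samples. All 33 members are named; values per library are given for those with an unadjusted p under 0.05, with groups that do not overlap, or with the smallest p of their branch, and for Agpat2, Chpt1 and Chkb, picked after their values were seen. Up to 3 genes of each related list, those with the smallest p, are named. A gene of the methyl donor list is not reported here. The members and lists were chosen with earlier results of these data known. Levels per kilobase use GENCODE M21 exons (GRCm38), which may differ from the authors' annotation. Of 3 listed symbols without a match, Gyk and Tafazzin are in the table under other symbols (Gk, Taz). Tested on simulated data for LKO against control (15031 genes), the fit recovered 68 of 97 simulated 2-fold changes and 90 of 96 simulated 4-fold changes, with 4 false calls. The simulation held no changes under 2-fold and no shift of a whole library such as that of control 4. It therefore does not show how many smaller changes the fit would recover in these data. Replicates differed by far more than sampling noise, and DESeq2 1.42.0 and limma 3.58.1 (voom) were alternatives.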

Additional observations from a re-analysis of the deposited data

Results flagged for a closer look

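In 9 of the 64 groups of 5 libraries examined, 1 library stood apart from the others by Dixon's criterion, which chance meets in about 1 group in 20. The criterion was applied to the members alone. Without the share over all genes, the 9 cannot be read as a trait of the members. Control 4 was the library in 4 of them: Plpp2 was high at 11.1 CPM (next 6.33), Chka high at 17.0 (next 13.1), Pcyt1a low at 74.5 (next 82.3) and Chpt1 low at 143 (next 267). LKO 3 was the library in another 4, low in each: Gpam at 122 CPM (next 217), Agpat3 at 145 (next 198), Plpp3 at 83.9 (next 137) and Pcyt2 at 117 (next 183). The last was Plpp1 in control 1, high at 9.85 CPM (next 8.50). Control 4 and LKO 3 had the lowest total counts, 26914124 and 29127474, and the highest TMM factors, 1.15 and 1.29, of their groups.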

How the results depend on the processing

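Low counts limit Agpat4, Cds1 and Chkb most, and codes in the titles overlap with genotype except in 3 libraries. Which members passed a threshold varied with test and library. The cause of each change below was not tested.

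Genes with an adjusted p under 0.05, 10 in the reported fit, numbered 31 with no filter on low counts, 20 with at least 1 CPM in 5 libraries, 1186 by DESeq2, 2460 by limma voom with quality weights, 2363 without control 4 and LKO 3, 296 at an adjusted p under 0.1, and 2 to 2296 leaving out each library in turn (2296 without control 4, 86 without LKO 1). With the title code as an edgeR covariate there were 0, with 760 genes at an unadjusted p under 0.05 (4.99%), and Lpcat3 was at -1.99 (adjusted p = 0.0565). Of 32 members, 3 passed by DESeq2 (Gpat3, Lpin2, Chka), where 1186 of 15226 genes did. By voom 4 of 32 passed (Gpat3, Lpin2, Agpat4, Plpp2), against 2460 of 15226 genes. Without control 4 and LKO 3 it was 5 of 33 members against 2363 of 15150 genes. At an adjusted p under 0.1 it was 2 of 32 members (6.25%) against 1.94% of all genes. Leaving out each library gave 0 to 5 members. It was 5 of 33 without control 4 (2296 of 15327 genes) and 1 of 32 without LKO 1 (86 of 15403 genes). Members at an unadjusted p under 0.05, 7 in the reported fit, numbered 14 with total counts (14 higher, 0 lower, against 6 and 1). They numbered 11 by voom and 13 without control 4 and LKO 3. Of all genes 26.6%, 33.2% and 31.3% had one in these settings, in that order. Leaving out each library they numbered 4 to 11. There were 11 without control 4 (33.1% of all genes), 4 without control 5 (17.8%) and 4 without LKO 5 (16.7%). Members with groups apart numbered 24 within the 3 A54 libraries (75%, against 79.2% of all genes), 8 without control 4 and LKO 3 (24.2% against 21.4%), and 3 to 8 leaving out each library (5 without control 1, 15.2% against 4.9%, and 8 without control 4, 24.2% against 19%).

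With total counts, medians were 0.30 for members, 0.33 for acylation, 0.45 for dephosphorylation, 0.23 for choline, 0.091 for ethanolamine, 0.13 for serine exchange, 0.29 for CDP-diacylglycerol and 0.46 for cardiolipin, beside a shift of 0.24 for all genes. The ethanolamine median was 0.072 with the title code and 0.070 within A54, and the cardiolipin median 0.0077 and 0.0057. Leaving out each library, the acylation median ran from 0.068 to 0.22, highest without LKO 3.

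Log2 differences changed sign as follows. With total counts they were 0.10 for Gpat4, 0.22 for Agpat5, 0.15 for Lpin1, 0.14 for Pcyt1a, 0.13 for Etnk1, 0.055 for Selenoi, 0.18 for Pemt, 0.13 for Ptdss2 and 0.15 for Cdipt. With the title code they were -0.023 for Agpat1, 0.11 for Lpin1, -0.14 for Plpp1, 0.00197 for Pcyt1a, -0.00217 for Cept1, 0.11 for Etnk1, 0.11 for Selenoi, -0.13 for Cds2, 0.023 for Cdipt and -0.069 for Crls1. Within A54 they were -0.023 for Agpat1, 0.015 for Lpin1, -0.14 for Plpp1, 0.00191 for Pcyt1a, -0.00307 for Cept1, 0.11 for Etnk1, 0.11 for Selenoi, -0.13 for Cds2, 0.014 for Cdipt and -0.069 for Crls1. Agpat5 was at 0.017 with upper quartile scaling, and Pcyt2 at -0.00426 with DESeq2 size factors and -0.00424 by DESeq2. Leaving out each library, Agpat5 ran from -0.046 to 0.033, Lpin1 from -0.23 to 0.10, Cept1 from -0.00019 to 0.13, Pcyt2 from -0.071 to 0.12 and Pemt from -0.12 to 0.025.

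Replicate numbers did not pair the samples (correlations of deviations from -0.40 to 0.42, the own number best in 1 of 5), so the fit with a replicate block bears no weight: it gave 2 genes, no member, and Pcyt2 at -0.020. Groups apart has no value with the title code, and Chkb was tested only where it passed the filter.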
